A study of Mus musculus with 2 samples.

Results

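The replication-dependent histone genes supply the chromatin proteins that a cell packs newly copied DNA with, and 61 of them were measured in single cells of mouse mammary tumours. They were taken as the gene symbols that start with Hist1h to Hist4h and that held at least 50 unique molecular identifiers (UMIs, each 1 captured message) over both deposited libraries. Of 32285 genes listed, 67 fit the symbol pattern and 61 reached the minimum: 5 linker histone H1 genes, 16 H2A, 16 H2B, 12 H3 and 12 H4. The 6 below it were Hist1h2aa with 33 UMIs, Hist1h1t with 15, Hist2h2aa2 with 8, Hist1h2ba with 3, and Hist1h4m and Hist1h2bq with 1 each. The tumours grew from 4T1 cells, a mouse mammary carcinoma line, placed with Matrigel in the mammary fat pad. The vehicle group received normal saline and the other group β-elemene, a plant sesquiterpene, at 30 mg/kg each day into the peritoneum for 18 days. Each group is 1 library of dissociated tumour, made with 3′ droplet chemistry. How many mice each library holds and the host strain were not given in the sources used here, so no difference between the treatments has a replicate check.

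The core histones H2A, H2B, H3 and H4 form the nucleosome, and H1 binds the DNA that links nucleosomes. Most of their genes lie in clusters without introns and are made in S phase, when DNA is copied. Their messages are the known exception among animal messenger RNAs: most end in a short stem-loop that the protein Slbp binds, and not in a poly(A) tail. A library primed on poly(A) therefore catches the tailed or internally primed part of these messages, and the levels below are levels of what was captured. They are given as CPM, the gene's UMIs for every 1000000 UMIs of the cell group, each gene is compared with itself, and a sum over genes weights each gene by its captured UMIs.

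The stem-loop is shown because it marks the usual end of the family. Its searched form on the coding strand, GG, any 2 bases, CT, any 4 bases, AG, any 2 bases and CC, lay within 100 bases after the stop codon in 24 of the 28 members whose GENCODE model reaches that far, against 0.442% of 19897 protein-coding genes. Counting the members with shorter models, 42 of 61 held it. The commonest form was in 24 members of all types except H4, and 6 H4 genes, among them Hist1h4d, Hist1h4h and Hist1h4c, held the second. Capitals mark the paired stem bases and small letters the loop.
Stem-loop of 24 members: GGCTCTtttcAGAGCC
Stem-loop of 6 H4 genes: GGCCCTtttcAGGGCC
Stem-loop of Hist1h3c, Hist1h3e, Hist1h3f, Hist1h2bb and Hist1h2bk: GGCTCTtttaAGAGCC
Stem-loop of Hist2h4 and Hist1h4i: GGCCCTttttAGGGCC

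A second kind of end is shown because its carriers came out lower in the comparison of dividing with non-dividing cells. The poly(A) signal AATAAA or ATTAAA lay in the last 40 annotated bases of 15 of 61 members, against 69.8% of 21951 protein-coding genes. The following stretches of at most 30 bases around it were read from the mm10 transcripts, with the signal in capitals.
Hist1h1c: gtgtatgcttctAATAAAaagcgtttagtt
Hist3h2a: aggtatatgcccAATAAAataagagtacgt
Hist2h4: tcgtatacataaAATAAAatcttaaaaaca
Hist1h4i: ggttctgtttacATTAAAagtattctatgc
Hist1h2ae: cccagcttctccAATAAAtgggtcaatttt

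The members lie at 4 loci of mm10. On chromosome 13, 49 members between 21715763 and 23764406 held 615490 of the 661908 member UMIs in all barcodes (93.0%), and 9 on chromosome 3 held 6.38%. Chromosome 11 held Hist3h2a and Hist3h2ba, and chromosome 6 held Hist4h4. Copies in this family are close to identical, so the split of reads among some of them is uncertain: 93.1% of the 50-base windows of Hist1h2ap, 90.7% of those of Hist1h2ah and 93.9% of those of Hist1h3h also occur in another gene. The share was 10.2% for Hist1h4d, 8.54% for Hist1h1c and 0% for Hist1h1b. Hist1h1e overlaps Hist1h2be on the same strand, and Hist3h2a overlaps Trim17.

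The libraries held 168750895 UMIs in 11324 barcodes (vehicle) and 157282740 UMIs in 11539 barcodes (β-elemene), with 37 barcodes in common. After filters on genes, mitochondrial share and doublets, 10465 and 10546 cells remained, and member genes held 0.205% and 0.201% of the UMIs. Clusters were built without the histone genes and without the cell cycle lists, and each was named from fixed markers: malignant-like cells with keratins, and macrophage-, monocyte-, neutrophil-, dendritic-, T and NK-, fibroblast- and endothelial-like cells. The short class names below stand for these marker-defined clusters. Krt18, a keratin of the tumour cells, stood at 2012 and 2424 CPM in malignant cells (vehicle first, as throughout). As a gauge of free RNA in the droplets, neutrophils, which should lack Krt18, showed 101 and 118 CPM, and T and NK cells 132 and 213 CPM.

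Dividing malignant cells carried most of the captured histone messages. Cells with at least 2 UMIs of Top2a and Mki67, both genes of proliferating cells, numbered 1472 and 1121, 36.4% and 33.7% of malignant cells, and they held 87.6% and 87.5% of that class's member UMIs. The members together stood at 4529 CPM in dividing and 598 CPM in non-dividing vehicle cells, which had 0 UMIs of both genes, a ratio of 7.57 (95% interval 7.46 to 7.68). With β-elemene the levels were 4764 and 624 CPM, a ratio of 7.64 (7.52 to 7.76). The intervals here and below cover counting error only. A member is called where its ratio is 1.5-fold or more with an interval that excludes 1, and, where both libraries are named, in both. Of 56 members with at least 50 UMIs in the compared cells of both libraries, 53 were higher in dividing cells in both, and none lower, against 9.49% of all genes called higher and 2.74% lower. Without that minimum 55 of 61 members were higher. Dividing cells were also deeper, with medians of 29111 and 31025 UMIs against 16741.5 and 16723. With every cell thinned to 5000 UMIs, which leaves out 395 and 388 shallower cells, the summed ratio was 10.6 and 12.6. The gate was applied again to the thinned counts, so the cells compared there were not the same dividing and non-dividing cells.

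**Figure D1:**
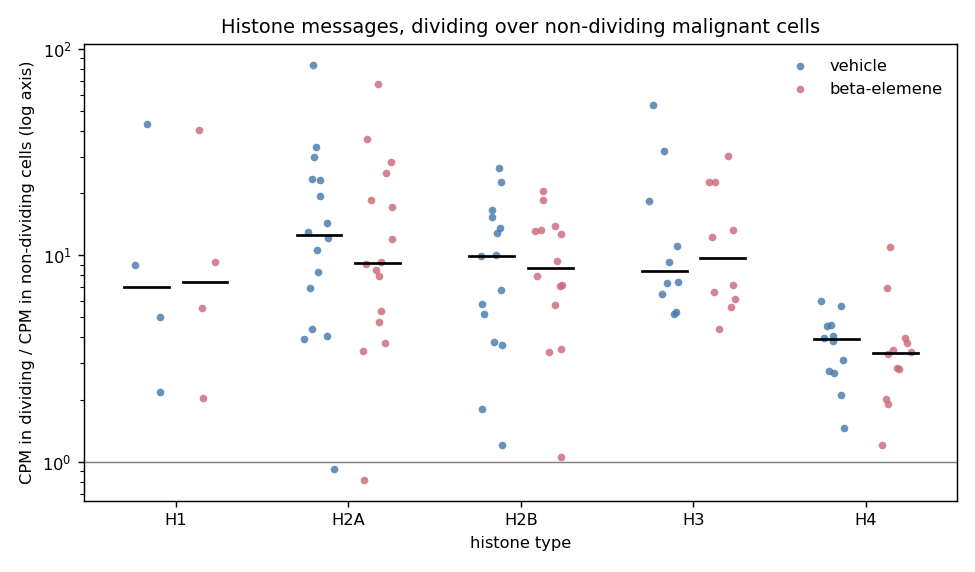
Each point is 1 histone gene in malignant cells; the vertical log axis is its CPM in dividing cells over its CPM in non-dividing cells, and black bars are the medians of each histone type in each library. H2A genes reach the highest ratios, with Hist1h2ah at 83.9 and 67.5, while the H4 medians are 3.93 and 3.36 and Hist3h2a (H2A) lies below 1 in both libraries.

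All 4 measured H1 genes were higher in dividing cells, and they spanned a wide range. Hist1h1b, the H1 subtype now called H1f5, stood at 394 against 9.09 CPM in vehicle (ratio 43.3, 38.6 to 48.8). With β-elemene it stood at 537 against 13.3 CPM (40.5, 36.5 to 45.0). Hist1h1b was thus low outside dividing cells in both libraries. Hist1h1e, the H1 gene with most UMIs, stood at 424 against 84.1 CPM (5.04, 4.84 to 5.25) and at 549 against 98.8 CPM (5.56, 5.34 to 5.78). Hist1h1d had ratios of 8.94 and 9.33. Hist1h1c, whose end carries AATAAA, was the lowest, at 71.1 against 32.9 CPM (2.16, 2.02 to 2.32) and 97.6 against 48.1 CPM (2.03, 1.90 to 2.16). The intervals of these 4 genes do not overlap within either library. Hist1h1a was too sparse in these cells, at 0.81 against 0.03 CPM and 0.58 against 0.07 CPM.

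As a group the H2A genes differed most across the division gate, with a summed ratio of 15.7 in vehicle and 16.3 with β-elemene. Hist1h2ap held most UMIs of any member, at 1062 against 45.4 CPM (23.4, 22.2 to 24.6) and 1197 against 42.5 CPM (28.2, 26.6 to 29.9). Hist1h2ae followed at 403 against 20.7 CPM (19.4) and 383 against 20.7 CPM (18.5). Hist2h2ac, on chromosome 3, had 181 against 21.9 CPM (8.27) and 175 against 20.5 CPM (8.52). The steepest member was Hist1h2ah, for which 361 UMIs in dividing cells stood beside 3 in non-dividing vehicle cells (83.9, 28.5 to 409). With β-elemene it had 276 beside 3 UMIs (67.5, 22.9 to 329), so its ratio is loosely fixed. Hist1h2af had 29.9 and 36.8, and Hist1h2an 33.5 and 25.1. Hist3h2a was the exception of the type, at 6.69 against 7.24 CPM (0.92, 0.78 to 1.10) and 8.52 against 10.5 CPM (0.81, 0.69 to 0.96).

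Among H2B genes the summed ratio was lower, 4.08 and 3.27, and the gene with most UMIs differed little. That gene, Hist1h2bc, stood at 58.8 against 48.9 CPM (1.20, 1.13 to 1.28) in vehicle and at 71.6 against 68.4 CPM (1.05, 0.99 to 1.11) with β-elemene. The other 13 H2B genes measured in both libraries were all higher, and the median H2B ratio was 9.99 and 8.69. Hist2h2bb had 6.76 and 7.09, and Hist1h2be 3.79 and 3.51.

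All 10 H3 genes measured in both libraries were higher in dividing cells. Hist1h3e, with most UMIs of the type, stood at 140 against 21.7 CPM (6.47) and 143 against 21.6 CPM (6.64). Hist1h3c had ratios of 31.9 and 22.7, and Hist1h3f 7.36 and 7.17. Hist1h3b was the steepest, at 35.4 against 0.66 CPM (53.7, 35.0 to 87.0) in vehicle and 33.8 against 1.11 CPM (30.3, 21.2 to 44.8) with β-elemene.

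The H4 genes had the flattest medians, 3.93 and 3.36, although 11 of 12 were called higher. Hist1h4d, with most H4 UMIs, stood at 569 against 139 CPM (4.08, 3.95 to 4.21) and 455 against 114 CPM (3.98, 3.84 to 4.14). Hist1h4h had 2.77 and 2.85, and Hist1h4i 2.70 and 2.02. Hist4h4 was at 2.11 (1.69 to 2.65) and 1.91 (1.47 to 2.50). Hist2h4 was the 1 H4 gene not called, at 1.46 (1.10 to 1.95) and 1.21 (0.88 to 1.67).

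The ends printed above went with the size of the ratio. Members with a poly(A) signal at the annotated end had a median ratio of 2.77 and 3.13 (13 and 12 measured), and those without one 9.12 and 8.79 (44 measured). Members with transcripts of 1000 bases or more had medians of 3.91 and 3.88, and shorter ones 9.99 and 9.19. Neither feature sorted every gene: Hist1h2ae carries AATAAA and had 19.4 and 18.5, and Hist1h2bc, flat across the gate, has no signal at its annotated end. The 2 features overlap and members share loci, so their parts cannot be told apart here.

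Neighbours that point away from each other did not always move alike. There were 11 such pairs of members with starts at most 1000 bases apart. Hist1h2ac and Hist1h2bc start 251 bases apart, and their dividing ratios were 3.91 and 1.20 in vehicle and 3.77 and 1.05 with β-elemene. Hist1h2ae and Hist1h2bg, 176 bases apart, had 19.4 and 3.66, then 18.5 and 3.40. In the pair Hist1h2bl and Hist1h2ai, 279 bases apart, the ratios were close, 9.92 and 10.6 in vehicle and 9.39 and 9.07 with β-elemene.

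Within the dividing malignant cells the messages were unevenly held. The median dividing cell carried 10.3 member UMIs per 10000 in both libraries, the upper quartile 57.8 and 77.2, and the 95th percentile 192 and 215. The tenth of dividing cells with most member UMIs held 53.1% and 50.3% of them. Non-dividing cells had medians of 5.24 and 5.26 per 10000.

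Cell cycle lists that contain none of the 61 members were used to look at where in the cycle these cells lay. The G2 and mitosis list does hold the centromere histone Cenpa, and the S-phase list holds Slbp. Malignant cells were split by their share of UMIs in an S-phase list and in a G2 and mitosis (G2M) list, with the top 25% of the library as high and below the median as low. These are ranges of a score and not cell types, and 209 and 199 cells lay near the S threshold, 69 and 61 near the G2M threshold. Cells high for S and low for G2M (198 and 158 cells) held 563 and 594 CPM of member messages, close to the 541 and 527 CPM of cells low for both (1367 and 1123 cells). Cells high for G2M and low for S (229 and 172 cells) held 2661 and 3066 CPM. Of 29 members measured in both libraries, none was higher in S-high than in G2M-high cells (3.94% of all genes were) and 29 were lower (4.10% of all genes). A member that reached the minimum only through its G2M-high cells had to be called lower. With no minimum, 45 of 59 members were lower and none higher. Hist1h4a, with ratios of 1.15 and 1.08, reached the minimum in vehicle only.

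The highest levels by far lay in cells high for both lists. These 473 and 414 cells, a range added after the first values were seen, held 9384 and 9582 CPM, of which H2A made up 4443 and 4434 CPM and H1 1998 and 2581 CPM. Against cells low for both lists, 53 of 55 members were higher (15.7% of all genes), all but Hist3h2a and Hist1h2bc. Against the G2M-high cells 48 of 55 were higher (6.10%), and the 2 called lower (2.13%) were again Hist3h2a and Hist1h2bc. S-high cells against low cells gave 6 of 30 members higher (6.76%) and 3 lower (2.48%), namely Hist3h2a, Hist1h2bc and Hist1h1c. Cells high for both lists were also the deepest, with medians of 31266 and 30655.5 UMIs against 18468 and 18261 in cells low for both, and the part of depth in the ranges was not tested.

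**Figure D2:**
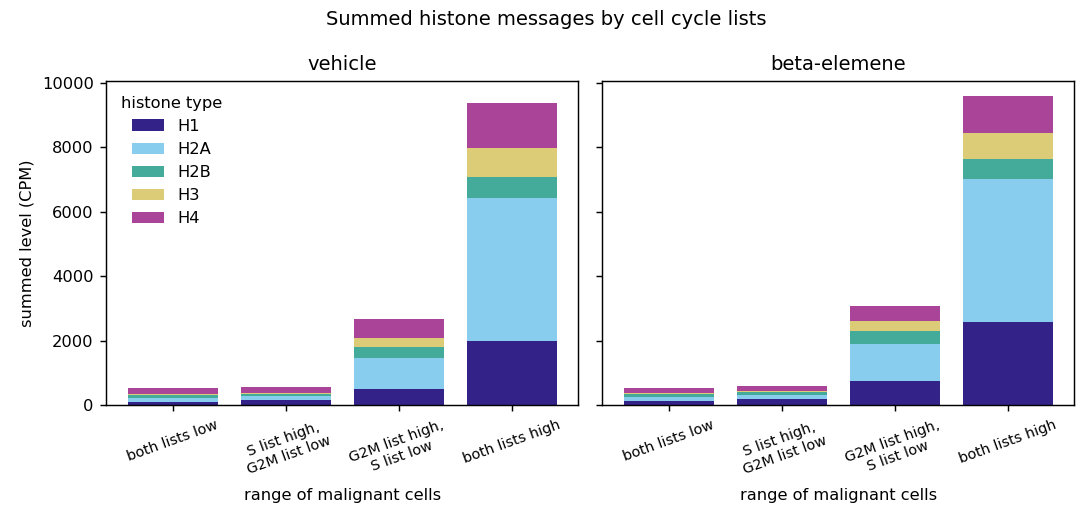
Stacked bars give the summed CPM of each histone type in malignant cells of 4 ranges set by an S-phase and a G2M gene list, with 1 panel per library. Cells high for both lists reach 9384 and 9582 CPM, G2M-high cells 2661 and 3066 CPM, and S-high cells (563 and 594 CPM) lie close to cells low for both lists (541 and 527 CPM).

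Shallow malignant cells had high member levels. In cells under 5000 UMIs (395 and 388) the members stood at 4177 and 5438 CPM, and at 8322 and 15949 CPM in the dividing ones. Non-dividing cells under 5000 UMIs held 1716 and 2656 CPM, and those with 30000 UMIs or more held 435 and 439 CPM. The shallow malignant cluster 7, with 248 and 405 cells and median depths of 3441 and 3009 UMIs, held 4744 and 4738 CPM. Without it the summed dividing ratio was 7.71 and 8.20.

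In the other classes, too, most measured members were higher in dividing cells, and which ones were not differed by class. In macrophages 47 of 51 members were higher in dividing cells in both libraries (8.27% of all genes), and the sums were 3806 against 473 CPM in vehicle and 4666 against 472 CPM with β-elemene. The exceptions were Hist2h4, Hist3h2a, Hist1h4i and Hist1h2bc. In T and NK cells all 29 measured members were higher (7.48%), with sums of 15106 against 998 CPM and 9479 against 953 CPM, the highest dividing levels of the classes compared. Fibroblasts gave 22 of 26 (7.18%), endothelial cells 13 of 14 (3.40%) and monocytes 6 of 7 (4.30%). Not called were Hist3h2a, Hist1h4i, Hist1h2bc and Hist1h1c in fibroblasts, Hist1h2bc in endothelial cells and Hist1h1c in monocytes. Fewer members reached the minimum in small classes, and a member that reached it only through its dividing cells had to differ. Classes also differed in depth, with medians of 4059 and 4434.5 UMIs in T and NK cells against 20501 and 20859 in malignant cells. Dividing malignant cells under 5000 UMIs stood at 8322 and 15949 CPM. The part of depth in the order of the classes was not tested.

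Neutrophils, short-lived cells that have left the cycle, held most of their member UMIs in cells that did not pass the division gate. Of their 1124 and 1777 cells, 15 and 19 passed the division gate, and these held 25.9% and 17.5% of the class's member UMIs, against 87.6% and 87.5% in malignant cells. The gate is a fixed count of UMIs, and neutrophils were shallow. Their median depths were 1910.5 and 1983 UMIs, against 20501 and 20859 in malignant cells. A shallow dividing cell can thus miss the gate, and the part of depth in these shares was not tested. Of 11 members measured, 6 were higher in dividing neutrophils (5.58%), and the other 5 were Hist2h2aa1, Hist1h4i, Hist1h2be, Hist1h2bc and Hist1h1c. These calls rest on very few cells. The tenth of dividing neutrophils with most member UMIs held 87.3% and 85.4% of them. The class was also mixed. Its cluster 3, led by Ngp and Camp (18 and 19 cells), held 2954 and 3277 CPM of member messages, and 11.1% and 15.8% of its cells passed the gate.

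**Figure D3:**
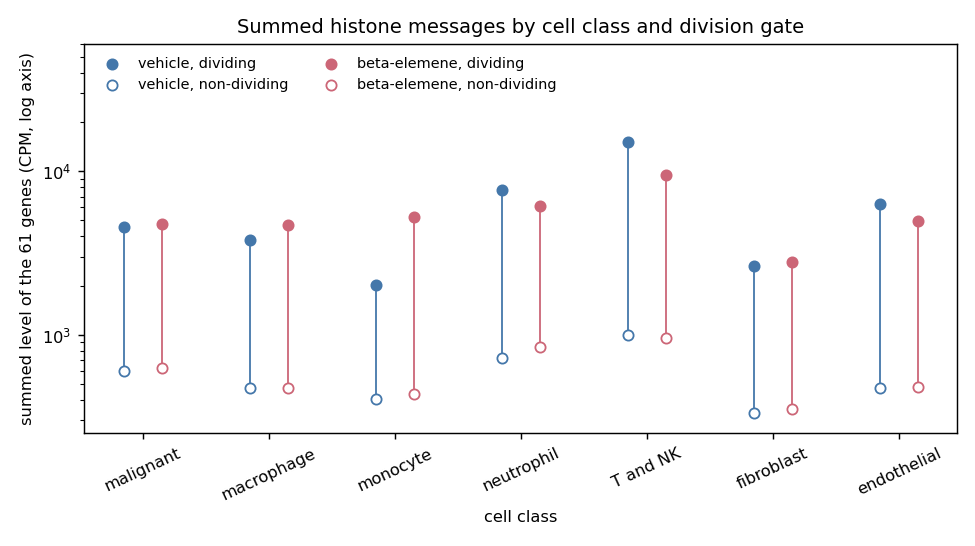
Points give the summed CPM of the 61 histone genes (log axis) in 7 cell classes, filled for dividing and open for non-dividing cells, joined by a line for each library. Dividing cells lie above non-dividing cells in every class and library; T and NK cells reach 15106 and 9479 CPM in division, and the open points of fibroblasts are the lowest.

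Across all cells of a class, the summed level followed the share of dividing cells only in part. T and NK cells stood at 3939 and 3203 CPM with 12.2% and 13.6% dividing, and malignant cells at 2551 and 2598 CPM with 36.4% and 33.7%. These shares rest on a fixed count of UMIs, so they cannot be compared strictly between classes of unlike depth. Endothelial cells had 1891 and 1931 CPM, dendritic cells 1705 and 1592, and macrophages 1402 and 1518. Neutrophils had 961 and 1002 CPM, fibroblasts 868 and 937, and monocytes 533 and 816. The order of endothelial, dendritic and macrophage cells was the same in both libraries, as was that of the lower 3 classes.

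Neutrophils differed from malignant cells in which members they held. Of 56 members, 40 were lower in neutrophils in both libraries (51.4% of all genes) and 4 were higher (17.5%), a smaller share than among all genes. Hist1h2bc, the neutrophils' member with most UMIs, stood at 157 and 198 CPM against 55.3 and 69.3 in malignant cells. Hist1h1c stood at 137 and 183 against 51.7 and 70.7 CPM. Hist1h4i stood at 67.7 and 81.6 against 15.5 and 15.7 CPM, and Hist1h2be at 45.0 and 56.4 against 22.2 and 21.4 CPM. Across the division gate of malignant cells these members had ratios of only 1.05 to 3.79, and 3 of the 4 carry a poly(A) signal at the annotated end. Most measured members with such a signal were lower in neutrophils, 7 of 13 in vehicle and 7 of 12 with β-elemene. In each library 3 of them were higher. Krt18, for comparison, stood at 101 and 118 CPM in neutrophils against 2012 and 2424 CPM in malignant cells, and the part of free RNA in the neutrophil values was not tested. In non-dividing cells alone 5 members were higher in neutrophils (18.2%), the same 4 and Hist2h2aa1.

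T and NK cells held the family broadly. There 24 of 58 members were higher than in malignant cells (19.4%) and 2 lower (25.2%), but in non-dividing cells 8 of 36 measured members were higher, close to the share of all genes (19.4%). Hist1h1a, an H1 subtype, was at 0.43 and 0.31 CPM in malignant cells, at 18.8 and 13.9 in T and NK cells, 8.90 and 9.22 in macrophages, 12.3 and 11.1 in dendritic cells, 7.92 and 22.3 in endothelial cells and 3.82 and 6.84 in fibroblasts. In malignant cells it thus stood below each of these 5 host classes in both libraries, while in neutrophils it rested on 3 and 1 UMIs. Hist3h2ba, an H2B gene, was at 9.42 and 6.81 CPM in T and NK cells, against 0.37 and 0.40 CPM in malignant cells and 0.47 and 0.63 in macrophages. In macrophages 4 of 61 members were higher than in malignant cells (24.8%): Hist2h2be, Hist2h3c1, Hist2h3c2 and Hist1h1a. Fibroblasts had 2 of 58 (22.0%), endothelial cells 1 of 57 (18.6%), dendritic cells 1 of 56 (15.6%), and monocytes 0 of 56 (18.6%).

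Between the treatments, the summed member level of malignant cells hardly differed, at 2551 CPM in vehicle and 2598 CPM with β-elemene (ratio 1.02, 1.01 to 1.02), but its makeup did. H1 messages were higher with β-elemene, 541 against 694 CPM (1.28, 1.27 to 1.30), and H4 messages lower, 487 against 381 CPM (0.783, 0.772 to 0.795). H2A was close to 1 (1.01, 1.00 to 1.02), as was H2B (0.997), and H3 was slightly lower (0.950, 0.931 to 0.969). Fewer cells in the histone-making part of the cycle and less RNA per cell cannot be told apart in such sums. In dividing malignant cells alone H1 was at 1.33 and H4 at 0.799, and in non-dividing ones at 1.27 and 0.838. Leaving out each malignant cluster in turn gave 1.26 to 1.41 for H1 and 0.759 to 0.844 for H4. The other types and the whole sum changed sides with the cluster left out. H2A ran from 0.971 (0.962 to 0.981) without cluster 4 to 1.10 without cluster 6, and H2B from 0.953 (0.932 to 0.974) to 1.07 (1.05 to 1.10) without the same clusters. H3 ran from 0.909 without cluster 4 to 1.04 (1.02 to 1.06) without cluster 6. The whole sum was 0.985 (0.979 to 0.991) without cluster 4 and 1.11 (1.10 to 1.12) without cluster 6. Without Hist1h1e the H1 ratio was 1.32, and without Hist1h4d the H4 ratio was 0.787.

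Most single H1 and H4 genes lay on the side of their type. Of 5 H1 genes 4 had intervals above 1 in malignant cells, against 22.9% of all genes, and of 12 H4 genes 9 had intervals below 1, against 29.8% of all genes, and none above. Over all types 8 of 60 members had intervals above 1 and 26 below. Hist1h1c went from 51.7 to 70.7 CPM (1.37, 1.32 to 1.42). Hist1h1b went from 200.2 to 264 CPM (1.32, 1.29 to 1.34), Hist1h1d from 35.8 to 45.5 (1.27, 1.21 to 1.33) and Hist1h1e from 253 to 314 (1.24, 1.22 to 1.27). These 4 H1 genes thus lay in a narrow band although their dividing ratios ranged from 2.03 to 43.3. The remaining H1 gene, the sparse Hist1h1a, lay on the other side at 0.730, with an interval that includes 1. Hist1h4d went from 353 to 276 CPM (0.782, 0.768 to 0.795) and Hist1h4h from 69.4 to 54.8 (0.790, 0.760 to 0.821). Hist1h4c went from 8.50 to 4.66 CPM (0.548, 0.483 to 0.621) and Hist1h4a from 9.71 to 6.18 (0.637, 0.569 to 0.712). Hist1h4i did not differ beyond counting error, at 15.5 and 15.7 CPM (1.01, 0.94 to 1.09).

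Past 1.5-fold, 2 of 60 measured members were lower, Hist1h4c and Hist1h4a, a share below the 7.01% of all genes, and none was higher (1.45% of all genes). Without cluster 5 neither of these was called and Hist1h3g and Hist1h4b were. Without cluster 6 only Hist1h4c was called. Hist1h1a was called lower as well without cluster 7, and with each cell classed by its own markers. Of the other members, Hist1h3h stood at 0.705 (0.611 to 0.811), Hist1h4b at 0.742 (0.569 to 0.965) and Hist1h2bp at 0.743 (0.636 to 0.867). These were not the lowest of the uncalled members. The lowest ratio was 0.652 among H3 genes, 0.730 among H1 genes (Hist1h1a) and 0.737 among H2B genes. The highest outside H1 were Hist3h2a, from 7.15 to 9.51 CPM (1.33, 1.20 to 1.48), Hist1h2ao at 1.26 (0.967 to 1.65) and Hist1h2bc, from 55.3 to 69.3 CPM (1.25, 1.21 to 1.30). Hist1h2ap, with most UMIs, went from 548 to 595 CPM (1.09, 1.07 to 1.10).

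**Figure D4:**
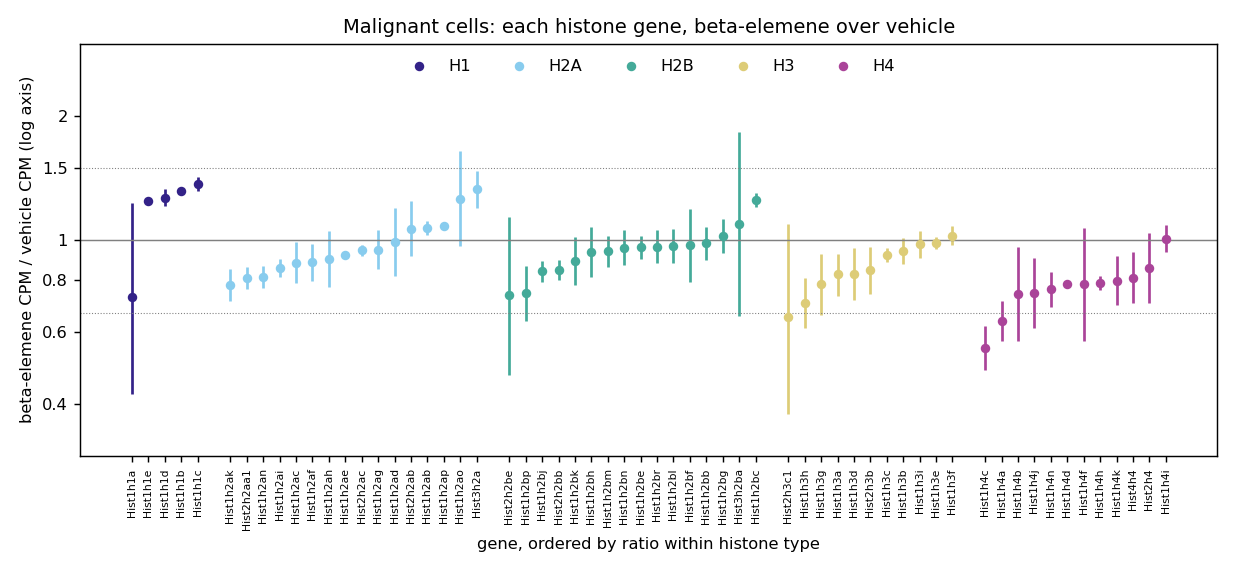
Each point is 1 histone gene in malignant cells, with its β-elemene CPM over its vehicle CPM on a log axis and its 95% counting interval, ordered within histone type; dotted lines mark 1.5-fold either way. H1 genes other than Hist1h1a lie between 1.24 and 1.37, and H4 genes lie at or below 1.01, with Hist1h4c lowest at 0.548.

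For genes other than the members, transcripts up to 400 bases had lower median ratios with β-elemene than those above 2000. Macrophages were the exception, with median log2 ratios of 0.003 and -0.04. The members are set beside other genes of like length. In malignant cells the 10 members with transcripts up to 400 bases had a median log2 ratio of -0.27, and 129 other genes of that length -0.31. From 400 to 600 bases the medians were -0.12 for 22 members and -0.19 for 365 other genes. From 600 to 1000 bases they were -0.10 for 12 members and 0.03 for 994 other genes, and from 1000 to 2000 bases -0.09 for 9 members and 0.05 for 3125 others. Above 2000 bases they were -0.06 for 7 members and -0.04 for 10372 other genes. Members thus lay near other genes of their length at the short and long ends and below them in between. The part of length in the members' differences was not tested.

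The H1 and H4 pattern was seen in most classes. The H1 interval lay above 1 in 7 of 8 classes, with ratios of 1.22 in macrophages, 1.83 in monocytes, 1.19 in neutrophils, 1.36 in endothelial cells, 1.24 in dendritic cells and 1.42 in fibroblasts, and below 1 in T and NK cells (0.863). The H4 interval lay below 1 in 7 of 8 classes, from 0.687 in T and NK cells to 0.855 in fibroblasts, and included 1 in monocytes. The other types had no such common side: H2A was above 1 in 3 classes and below in 2, and H3 above in 1 and below in 3. In non-dividing cells alone H1 was above 1 in 7 of 8 classes, and H4 was below 1 in 5 and included 1 in the other 3. In dividing cells alone H1 was above 1 in 4 of 7 classes, below 1 in T and NK cells and included 1 in neutrophils and endothelial cells. There H4 was below 1 in 6 of 7 classes and above 1 in monocytes (1.51, 1.17 to 1.97). The classes come from the same pair of libraries, so they are not replicates of the treatment.

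**Figure D5:**
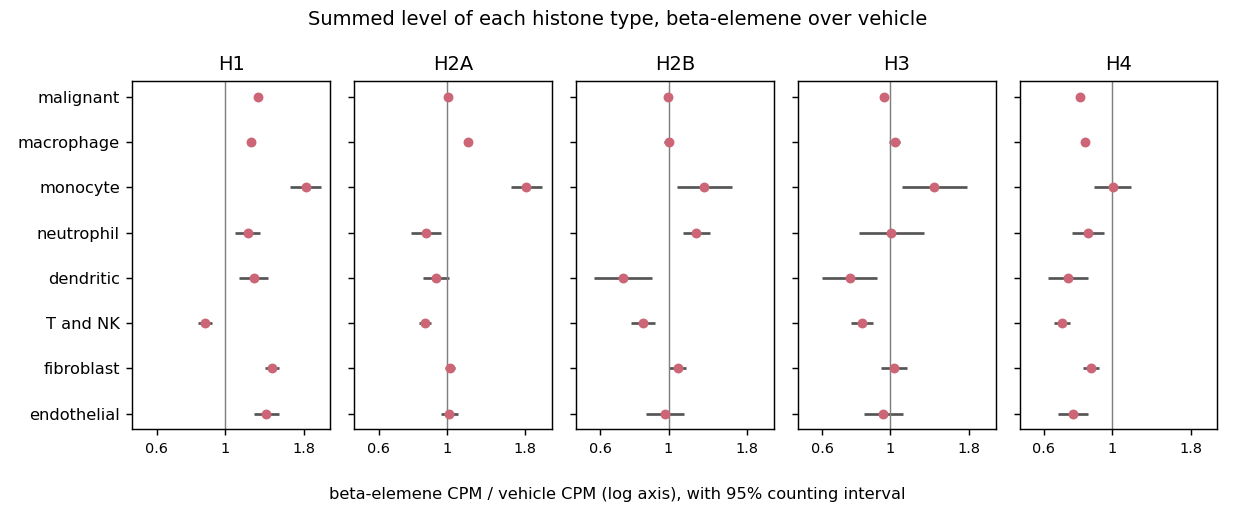
Panels give 1 histone type each, and points the β-elemene over vehicle ratio of its summed CPM (log axis) with the 95% counting interval in 8 cell classes. H1 lies right of 1 in every class but T and NK cells (0.863), and H4 lies left of 1 in every class but monocytes (1.00), where the interval includes 1.

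Some single genes repeated these sides across classes. Hist1h4h was below 1 in 8 of 8 classes, from 0.605 in T and NK cells to 0.937 in dendritic cells. Hist1h4d was below 1 in 7 of 8, with its lowest value in neutrophils (75.2 to 43.1 CPM, 0.574, 0.465 to 0.708). Hist1h4c was lower past 1.5-fold in malignant cells, macrophages (6.16 to 4.03 CPM) and T and NK cells (19.6 to 11.1 CPM). Hist1h1c was above 1 in 7 of 8, and in dendritic cells it passed 1.5-fold (102 to 169 CPM, 1.66, 1.34 to 2.06). Past 1.5-fold, macrophages had 2 of 60 members lower (2.30% of all genes), Hist1h4c and Hist1h2ah, and neutrophils 1 of 18 (3.79%), Hist1h4d. Dendritic cells had 1 of 14 higher (2.73%).

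Fibroblasts and endothelial cells had higher H1 genes. In fibroblasts 3 of 39 members were higher (2.42%): Hist1h1b, from 59.6 to 92.7 CPM (1.56, 1.43 to 1.70), Hist1h1a, from 3.82 to 6.84 CPM (1.79, 1.28 to 2.53), and Hist3h2a, from 4.73 to 7.24 CPM (1.53, 1.12 to 2.11). In endothelial cells 2 of 22 were higher (4.26%): Hist1h1e, from 157 to 259 CPM (1.65, 1.44 to 1.89), and Hist1h1a, from 7.92 to 22.3 CPM (2.82, 1.60 to 5.20).

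T and NK cells and monocytes lay on opposite sides. In T and NK cells 10 of 42 members were lower with β-elemene (3.16% of all genes), among them Hist1h4a (0.450, 0.270 to 0.738), Hist1h4k (0.454, 0.277 to 0.732) and Hist1h4h (0.605, 0.521 to 0.701). The sum in dividing T and NK cells was 15106 CPM in vehicle (72 cells) and 9479 CPM with β-elemene (88 cells), a ratio of 0.628 (0.609 to 0.646), and in non-dividing ones 998 and 953 CPM (0.954, 0.894 to 1.02). The clusters of the class differed: cluster 14 went from 2308 to 2730 CPM, cluster 15 from 5364 to 4364, and cluster 21, with 52 and 86 cells, from 4611 to 1617. In monocytes 7 of 17 members were higher (2.31%), among them Hist1h1b, from 21.0 to 68.7 CPM (3.27, 2.45 to 4.41), and Hist1h2ap, from 61.6 to 141 CPM (2.28, 1.92 to 2.73). That difference lay mostly in the few dividing monocytes, 22 and 28 cells at 2017 and 5266 CPM, while non-dividing ones held 402 and 435 CPM (1.08, 0.992 to 1.18). For H1 alone the non-dividing monocytes differed too, at 142 and 184 CPM (1.29, 1.12 to 1.49).

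Promoters are shown for H1 and H4 genes because these types lay on opposite sides between the treatments. Both strands of the 300 bases from 250 before to 50 after the RefSeq start (GRCm38.p6) were searched in the 56 members that matched. CCAAT was in 48 of 56, against 37.9% of 27025 promoters, and the H4 genes stood apart with 3 of 11 where every H1, H2A, H2B and H3 promoter held it. TATAAA was in 32 (14.2% of all promoters). ATTTGCAT, the octamer, was in 11 (1.75% of all), all of H2A or H2B. AAACACA was in 6 (7.14% of all), 4 of them among the 5 H1 genes. Neighbours that point away from each other can have overlapping windows, so 1 stretch can count for both. The octamer of Hist1h2ah and Hist1h2bk is the same stretch, as is that of Hist1h2ae and Hist1h2bg. The counts are thus not of separate promoters throughout. The 200 bases before the start are printed for Hist1h1b (chr13:21780626-21780825, minus strand), Hist1h1e (chr13:23622559-23622758, minus strand) and Hist1h4d (chr13:23581368-23581567, plus strand), 5′ to 3′ on the gene's strand with matches to these motifs on either strand in capitals.
Hist1h1b: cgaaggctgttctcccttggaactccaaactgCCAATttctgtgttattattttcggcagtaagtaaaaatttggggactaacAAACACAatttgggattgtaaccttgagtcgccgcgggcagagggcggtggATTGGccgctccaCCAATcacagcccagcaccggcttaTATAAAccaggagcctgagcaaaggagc
Hist1h1e: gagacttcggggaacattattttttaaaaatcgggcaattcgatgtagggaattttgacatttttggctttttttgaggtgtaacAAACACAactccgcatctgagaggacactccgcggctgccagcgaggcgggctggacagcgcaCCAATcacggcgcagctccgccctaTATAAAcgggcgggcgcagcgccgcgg
Hist1h4d: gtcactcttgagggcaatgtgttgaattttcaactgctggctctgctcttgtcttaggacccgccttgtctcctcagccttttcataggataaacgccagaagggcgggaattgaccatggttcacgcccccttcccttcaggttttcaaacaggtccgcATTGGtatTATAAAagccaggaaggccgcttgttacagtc
All 3 windows hold TATAAA close before the start and a match to CCAAT farther up. Hist1h4d is thus 1 of the 3 H4 genes with CCAAT, and not typical of its type in this motif. The AAACACA match is in both H1 windows and not in that of Hist1h4d. A match is a stretch of letters and not a tested site.

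Other genes of the histone pathway were set beside the members across the division gate of malignant cells, where 9.49% of all genes were called higher. Of the replication-independent variants, which are made outside S phase too and carry poly(A) tails, 5 of 9 measured were higher in dividing cells in both libraries: the H2A variants H2afz (3.78 and 4.12), H2afx (5.44 and 6.10) and H2afv (1.68 and 1.89), the linker histone H1f0 (1.57 and 1.66) and the centromere histone Cenpa (11.0 and 13.5). The H3.3 gene H3f3b stood at 2354 against 2223 CPM in vehicle (1.06) and had 1.07 with β-elemene, and H3f3a had 0.99 and 1.10. Of 11 genes that process histone messages 6 were higher, among them Slbp, the stem-loop binder (1.60 and 1.56), and Eri1, an exonuclease that trims the stem-loop end (1.81 and 1.86). Of 16 histone chaperones and modifiers 8 were higher, led by Asf1b (13.6 and 17.9) and Chaf1a (6.37 and 5.99), which hand new histones to copied DNA. Between the treatments none of these genes passed 1.5-fold in malignant cells: H3f3b had a ratio of 1.15, H2afz 1.13, H1f0 1.19, Slbp 0.92 and Nasp, an H1 and H3-H4 chaperone, 0.91.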

How the data were processed

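The deposited values are raw UMI counts per gene and barcode, and per the file headers the authors' matrices were written by Cell Ranger 7.1.0. The submitters' processing notes name Cell Ranger, STAR and the mm10 build, and per the labels' protocols the chemistry was 3′ version 3. The annotation release and the counting of intron reads were not given in the sources used here. Barcodes with at least 200 genes and at most 20% mitochondrial UMIs were kept (10803 vehicle, 10861 β-elemene), and 338 (3.13%) and 315 (2.90%) called doublets were removed. Both libraries were clustered together with scanpy 1.11.5 on 2000 variable genes without histone and cell cycle genes, 30 components, 15 neighbours and resolution 1. A cluster took the class with the best mean marker score where at least 3 fixed markers were seen in 10% or more of its cells. The score had to lead the next class by 0.05. Clusters with Csn3 or Prlr, genes of normal milk-duct epithelium, among their leading genes were not named malignant. Shallow clusters without a marker of their class among their leading genes, and clusters led by a marker of another class, were left unnamed. Pericyte-like and unnamed clusters were not compared.

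UMIs were summed per library, class and gate and divided by the sum's total. Every gene with at least 50 UMIs in the 2 sums was treated alike. Ratios carry exact conditional binomial 95% intervals, which cover counting error only. On sums redrawn as Poisson counts, which the intervals assume, they held the true ratio for 95.4% of genes. That check could not show how cells or mice vary. With 1 library per group no test between treatments exists. GENCODE mm10 models gave ends and overlaps, and RefSeq GRCm38.p6 the promoters. Named genes are the 3 members with most UMIs per type and the member with most UMIs per class. The 5 highest and lowest listed for each main ratio are named too, as are those that a count of few singles out. These genes were chosen after their values were seen. The list of lowest treatment ratios left out some members with lower values, Hist1h1a among them. Members, lists and markers were chosen with earlier results of these data known. Alternatives were other resolutions, stricter cell filters, doublets kept, other minimums, folds, gates and totals, cells classed singly, thinning, the top cell left out, and, added after seeing the data, cluster 3 left out, other phase ranges, and each malignant cluster left out for the treatment ratios and cluster 7 for the rest.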

Additional observations from a re-analysis of the deposited data

Results flagged for a closer look

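The summed member level lay on different sides of 1 between the treatments in different classes, with intervals that exclude 1. The β-elemene over vehicle ratio was 1.02 in malignant cells, 1.08 in macrophages, 1.53 in monocytes and 1.08 in fibroblasts, and 0.934 in dendritic cells and 0.813 in T and NK cells. The malignant value was 0.985 without cluster 4. Clusters within other classes differed too. In fibroblasts cluster 0 went from 1019 to 974 CPM and cluster 17 from 602 to 890. In macrophages cluster 8 went from 3168 to 1897 CPM and cluster 20 from 1615 to 1458, while clusters 9, 10, 12 and 19 were higher with β-elemene. Differences between classes and between clusters were not tested, since each group has 1 library and the intervals cover counting error only.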

How the results depend on the processing

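No paired analysis was possible because each group had 1 library. The count of 53 members higher in dividing malignant cells ranged from 41 to 55 over 13 alternatives. The count of 4 members higher in neutrophils was 4 under all 12, and that of members higher in S-high than in G2M-high cells was 0 under all 12, while 29 lower became 27 without each gene's top cell or without cluster 7, 12 at 200 UMIs, 45 with no minimum and 13 after thinning. Of the 2 members past 1.5-fold between the treatments, 0 passed 2-fold, and the count was 1 without cluster 6; in non-dividing cells alone the calls were Hist1h2bm higher and Hist1h3h lower. The summed treatment ratio was 1.05 in dividing cells only, 1.04 in non-dividing cells only, and 1.01 with doublets kept or without cluster 7. It reversed to 0.985 without cluster 4, and was 1.06 without cluster 5, 1.11 without cluster 6 and 1.02 without cluster 16. The summed dividing ratio was 10.6 (vehicle) and 12.6 (β-elemene) after thinning, 9.47 and 9.60 with a gate of 4 UMIs, 7.07 and 7.08 with mitochondrial, ribosomal and Gm42418 UMIs left out of the total, and 7.71 and 8.20 without cluster 7. For β-elemene it was also 7.77 under stricter cell filters and 7.84 with cells classed singly. The cause of these shifts was not tested. Members under 50 UMIs in a comparison, such as Hist1h1a across the division gate of malignant cells, could not be measured at this depth.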
